A study of Mus musculus with 21 samples.

Results

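Mouse formative stem cells (FS) were compared with epiblast stem cells (EpiSCs) in the culture called AF, across all genes and with 67 lists of genes that stand for cellular processes rather than for cell identity. The comparison used 9 of the 21 RNA sequencing samples of the series: the 6 FS samples and the 3 AF samples, chosen by their column names in the raw count matrix. The FS samples were 2 lines in the medium A3XR, line 1 (5cdr1) at passages 10, 11 and 18 and line 2 (5cdr2) at passages 12, 13 and 16. The AF samples were EpiSCs at passages 14, 15 and 16 in the medium AF, and their descriptions carry E14, as a mouse embryonic stem cell line is called. Each sample held 1000 cells, from which total RNA was prepared. The labels name no transgene, deletion or treatment in any of these cells and give the media by name only. The other samples of the series were 3 of EpiSCs in the medium AFX and 9 single epiblasts.

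Cell line and medium differ together between FS and AF and cannot be told apart. Passages of a line are not separate derivations, so p-values measure the spread between these samples, which may be technical. In bulk samples, fewer cells of a type and less RNA per cell cannot be told apart.

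As background, the epiblast is the founder tissue of the embryo. Formative cells stand for the stage shortly after implantation, when the epiblast has left naive pluripotency and has not begun gastrulation, while EpiSCs resemble the epiblast on the verge of gastrulation. Culture of EpiSCs is generally based on activin and fibroblast growth factor (FGF), and gastrulation brings epithelial to mesenchymal transition, new matrix and new adhesion.

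Total counts ran from 7753188 to 15916800 per sample in FS and from 7768822 to 10960885 in AF, and 5 loci with ribosomal RNA sequence took 19.9% to 24.5% of counts in FS and 25.3% to 28.3% in AF. Levels are given in CPM, counts per 1000000 counts of the genes tested after TMM scaling, and 3 counts correspond to 0.181 to 0.399 CPM in these 9 samples. For FS the lowest, the median and the highest of the 6 samples are given, and for AF the samples at passages 14, 15 and 16 in that order. Fold changes are log2 values of FS against AF from edgeR with their standard error (SE), so negative values mean lower in FS. A gene was called higher or lower where the Benjamini-Hochberg adjusted p was under 0.05 and the sign was the same in both FS lines. The pluripotency gene Lin28a, an RNA-binding protein of embryonic cells, was at 431, 502 and 556 CPM in FS and 440, 371 and 449 CPM in AF, and the groups overlapped. Of 9 core pluripotency genes, 2 were higher (Sox2 and Epcam) and 2 were lower (Nanog and Tdgf1), with 1 higher without any single one of the AF samples. The summed level of these 9 core pluripotency genes was 1476 to 1837 CPM in FS and 1321 to 1727 CPM in AF.

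Markers of several other cell types and stages differed between the groups. Of 12 primitive streak and definitive endoderm markers, 11 were tested, 8 were lower in FS and 0 were higher. Their summed level was 34.7 to 156 CPM in FS and 458 to 1058 CPM in AF. The marker not tested, Mesp1, went the other way, with 68 counts over the FS samples and 2 over the AF samples. Of 11 feeder fibroblast markers, 10 were tested, 8 were lower in FS and 0 were higher, with sums of 46.8 to 84.5 CPM in FS and 291 to 381 CPM in AF. The proteoglycan Lum had no count in any FS sample, and Dcn, another matrix proteoglycan of fibroblasts, was at 0, 0.1498 and 0.766 CPM in FS and 7.04, 1.42 and 3.003 CPM in AF. Thy1, a surface glycoprotein of fibroblasts and neurons, was at 3.29, 5.45 and 9.04 CPM in FS and 1.46, 4.54 and 0.901 CPM in AF and was not called (log2 fold change 1.33 ± 0.49, SE, adjusted p = 0.0738), although the adjusted p was 0.00676 without the AF sample at passage 15, 0.0384 with line 2 alone and 0.0291 in DESeq2. Of 13 visceral endoderm markers, Hnf4a, Apob, Afp and Ttr had no count in FS and Trf and Afp none in AF, 3 of the 5 tested were lower in FS, and the sums were 44.3 to 91.3 CPM in FS and 103 to 246 CPM in AF. Of 10 extraembryonic ectoderm markers, 5 of the 7 tested were lower in FS, 3 without AF at passage 16, Elf5 had no count in AF, and the sums were 18.9 to 33.5 and 46.9 to 69.3 CPM. None of the 7 neural plate markers tested was called by edgeR, but 6 of the 7 had a positive log2 fold change, with a median of 1.18 and sums of 26.6 to 78.99 CPM in FS and 21.1 to 32.3 CPM in AF. Neurog2, the marker not tested with all samples, had 38 counts in FS and 0 in AF. Without AF at passage 15, 8 were tested and 1 was higher. Of 10 naive pluripotency markers, 6 were tested and all 6 were lower in FS, with sums of 7.19 to 15.4 CPM in FS and 50.6 to 75.3 CPM in AF. Of 7 primordial germ cell markers, the 3 tested were lower, as were 2 of the 3 tested of 7 for endothelium and blood. Their sums were 7.53 to 18.6 and 4.35 to 6.52 CPM in FS and 50 to 84.4 and 19.3 to 32.2 CPM in AF. With any single AF sample left out, or line 1 at passage 10 or 11, or line 2 at passage 13, 5 germ cell markers passed the filter and were lower. Of 9 early postimplantation epiblast markers tested, 3 were higher and 1 was lower, the latter 0 without AF at passage 14 or 16, line 1 at passage 11 or line 2 at passage 12 or 16. These marker lists move with the gene groups described next, and their part in those results was not tested.

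Of 16052 genes tested, 1422 were higher in FS (8.86%) and 1704 were lower (10.6%). All 3126 had the same direction in both FS lines, as no gene with an adjusted p under 0.05 went in opposite directions in the lines. Both lines were set against the same 3 AF samples, and the call rests on the pooled FS samples. The shared direction is therefore not an independent replication, and the lines tested on their own share the AF samples too. The median log2 fold change was 1.08 among the called higher genes, -1.30 among the called lower genes and 0.02 over all genes tested. Tested in each line on its own, 844 genes were higher (5.26%) and 1043 were lower (6.50%) with an adjusted p under 0.05 in both lines. The 6 FS and 3 AF samples did not overlap for 2641 of the 3126 called genes (84.5%), against 21.1% of all genes tested. A called gene is chosen for its difference, so a higher share without overlap follows from the choice. The same holds for the called genes named below, which were picked by adjusted p or size. Changes of at least 8-fold were more often falls, with 288 lower and 137 higher genes. The count of higher genes was 905 without the AF sample at passage 16, and 899 with line as a random block in limma. Among the 67 process lists, 65 had at least 8 members tested, 26 of these had a share of lower genes at least 1.5 times the background of 10.6%, and 19 had a share of higher genes at least 1.5 times the background of 8.86%, with 4 lists in both. In these 65 lists, 45 counts of higher or lower genes were 1 or 2, and 37 of them moved by more than 1.5 times when 1 sample was left out. Where a list or marker set is given with 0 members higher or lower, that is by edgeR, and the count was also 0 at an unadjusted p under 0.05, in DESeq2 and in limma, with these exceptions. At an unadjusted p, 1 member each was higher among basement membrane genes, integrins, neural plate markers and fibroblast markers (the last, Thy1, also in DESeq2), 3 tRNA synthetases were higher, and 2 purine genes and 1 protocadherin were lower.

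**Figure D1:**
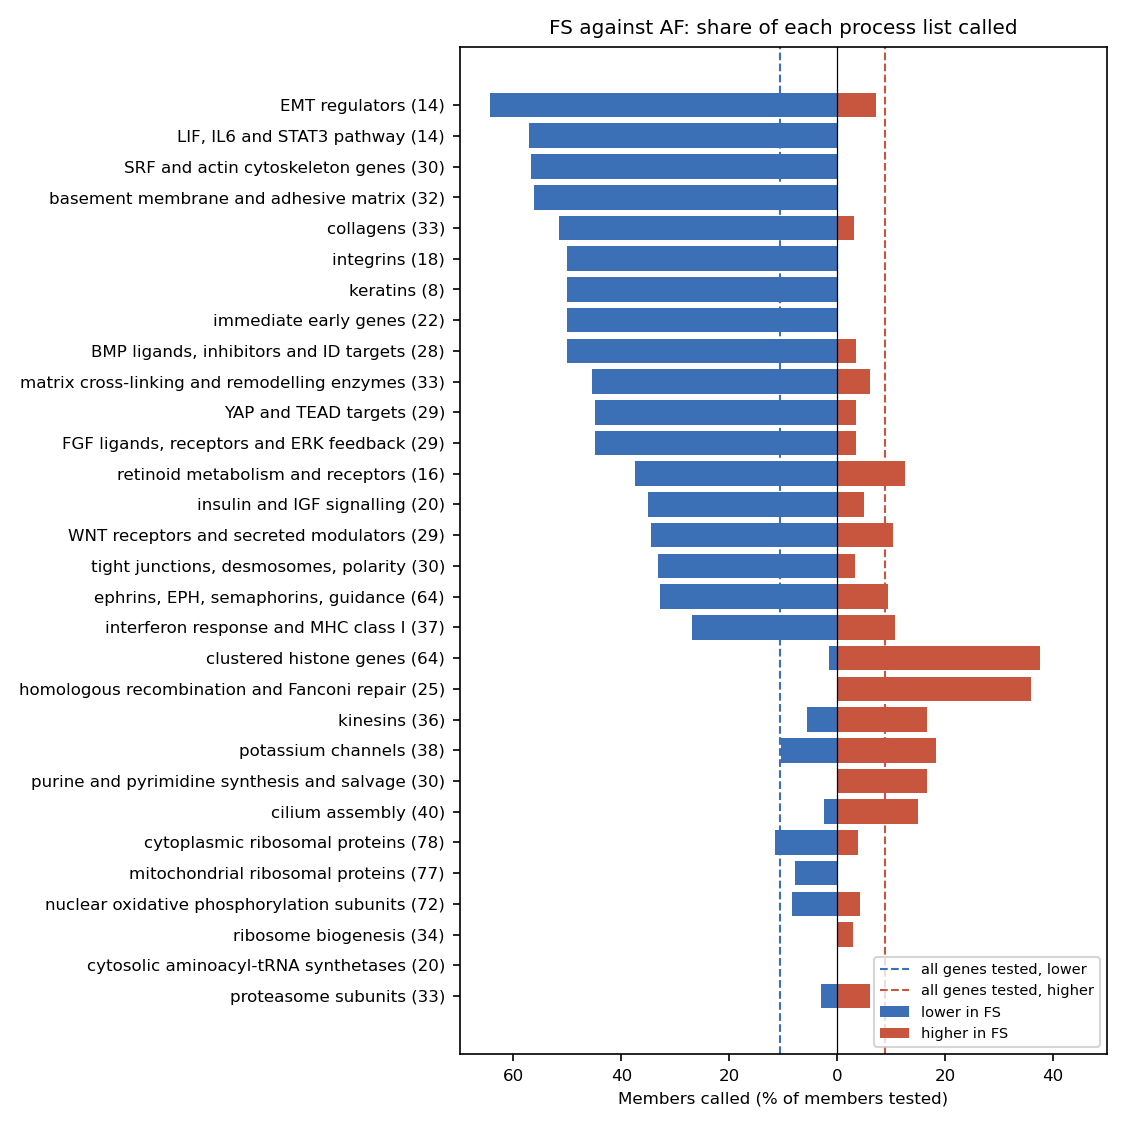
Share of members called lower in FS (blue, to the left) or higher in FS (red, to the right) as a percentage of the members tested, for 30 process lists with the number tested in brackets. Dashed lines mark the shares over all genes tested, 10.6% lower and 8.86% higher. The matrix, adhesion and signalling lists drawn extend past the lower line, and the housekeeping lists drawn stay near or inside both lines. NOTCH (12.5% lower), WNT ligands (11.1%) and Hedgehog (0%) are among the lists not drawn.

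Genes of the actin cytoskeleton were lower in FS as a group. This list holds actins, actin binding proteins and other targets of serum response factor (SRF), a transcription factor that reads the state of the actin pool. Of 30 members tested, 17 were lower (56.7%), 0 were higher and the median log2 fold change was -0.80. Acta2, smooth muscle actin, was at 0.562, 1.34 and 2.76 CPM in FS and 28.1, 63.2 and 18.2 CPM in AF (log2 fold change -4.6 ± 0.45, SE, adjusted p = 2.16e-05). Zyx, a focal adhesion protein that responds to tension, was at 38.9, 47.2 and 62.1 CPM in FS and 138, 100 and 145 CPM in AF (log2 fold change -1.4 ± 0.15, SE, adjusted p = 1.97e-05). The lowest AF sample of both genes lay above the highest FS sample. The actin cross-linker Actn1 was at 99.3, 136 and 168 CPM in FS and 296, 395 and 328 CPM in AF (log2 fold change -1.34 ± 0.15, SE, adjusted p = 2.88e-05). Tln1, which couples integrins to actin, was at 119.8, 138 and 169.9 CPM in FS and 258, 266 and 276 CPM in AF (log2 fold change -0.94 ± 0.12, SE, adjusted p = 7.94e-05). The members with the highest levels that were not called were Myh9, the heavy chain of non-muscle myosin, with a log2 change of 0.2 ± 0.19 (adjusted p = 0.51), and the actin cross-linker Flna with -0.15 ± 0.11 (adjusted p = 0.396). Both overlapped between the groups. Acta2 is also in the fibroblast list, and without it 16 of 29 members were lower.

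SRF binds a sequence called the CArG box, and the promoters of 3 members that were lower and carry one, and of the immediate early gene Zfp36, are shown because these genes moved together. RefSeq gives a promoter for 27 of the 30 actin list members, and 8 of them (29.6%) have a CArG box in the 250 bases before a start, read on both strands, against 165 of 11006 genes tested (1.5%). The share was 4 of 14 among the members that were lower, so the box was about as frequent among members that were not called. The box was searched with results of these data known, and the list was written from known SRF targets, so a high share of boxes in it is no finding. Among all genes called lower, 35 of 1201 (2.91%) had a box, and among all called higher 9 of 986 (0.913%). The sequences are 50 bases of GRCm38.p6 around the box, on the strand of the gene, with the box in capitals; these 4 genes were chosen after their values were seen.
Cnn2: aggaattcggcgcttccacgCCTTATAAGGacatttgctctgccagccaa
Vcl: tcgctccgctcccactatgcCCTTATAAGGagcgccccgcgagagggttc
Fhl2: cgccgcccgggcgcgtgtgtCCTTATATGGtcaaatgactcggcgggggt
Zfp36: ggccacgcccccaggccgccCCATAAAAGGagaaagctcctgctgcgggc
The Cnn2 window is chr10:79988524-79988573 (plus strand), that of Vcl chr14:20929151-20929200 (plus strand), that of Fhl2 chr1:43163963-43164012 (minus strand) and that of Zfp36 chr7:28379257-28379306 (minus strand). All lie before an annotated start. The windows of Fhl2 and Zfp36 lie within the GENCODE spans of these genes, so the starts after them are internal ones.
Cnn2, the actin binding protein calponin 2, was at 12.5, 21.1 and 42.8 CPM in FS and 109, 146 and 115 CPM in AF (log2 fold change -2.4 ± 0.31, SE, adjusted p = 0.000258). Vcl, vinculin of focal adhesions, was at 171, 194 and 298 CPM in FS and 402, 498 and 410.1 CPM in AF (log2 fold change -1.06 ± 0.15, SE, adjusted p = 0.000195). Fhl2, a LIM domain cofactor, was at 0.562, 1.47 and 2.06 CPM in FS and 4.39, 14.6 and 8.01 CPM in AF (log2 fold change -2.65 ± 0.46, SE, adjusted p = 0.000935). Zfp36, an immediate early gene whose product degrades messenger RNAs, was at 1.74, 3.45 and 5.79 CPM in FS and 8.51, 15.7 and 7.31 CPM in AF (log2 fold change -1.57 ± 0.33, SE, adjusted p = 0.00388). In each of these genes all AF samples were above all FS samples.

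Genes of the extracellular matrix were also lower in FS. Of 33 collagen genes tested, 17 were lower (51.5%), 1 was higher, and the median log2 fold change was -1.37. Col1a2, of fibrillar type I collagen, was at 3.83, 4.7 and 9.78 CPM in FS and 51.2, 77.2 and 56.6 CPM in AF (log2 fold change -3.5 ± 0.28, SE, adjusted p = 2.31e-06). Col3a1, of fibrillar type III collagen, was at 0, 0.483 and 1.33 CPM in FS and 116, 85.4 and 51.2 CPM in AF (log2 fold change -7.12 ± 0.62, SE, adjusted p = 2.23e-05). Both were widely separated between the groups. The fold changes were -4.08 ± 0.43 (adjusted p = 1.82e-05) for Col8a2, a short-chain collagen, and -1.57 ± 0.18 (adjusted p = 3.53e-05) for the fibrillar Col5a1. Col18a1, a basement membrane collagen, was not called, at 159, 237 and 357 CPM in FS and 185, 199 and 217 CPM in AF (log2 fold change 0.27 ± 0.19, SE, adjusted p = 0.351). Col1a1, Col1a2 and Col3a1 are fibroblast markers too, and without them 14 of 30 collagen genes were lower, with a median of -1.20.

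Basement membranes are sheets of laminin, nidogen and collagen under epithelia, and 18 of 32 genes for these and other adhesive matrix proteins were lower in FS (56.2%), with 0 higher and a median of -0.77. The nidogen gene Nid1 was at 7.12, 9.96 and 12.1 CPM in FS and 34.2, 45.6 and 62.5 CPM in AF (log2 fold change -2.27 ± 0.23, SE, adjusted p = 1.15e-05). Lamb1, a laminin chain, was at 112, 121 and 147 CPM in FS and 219, 295 and 254 CPM in AF (log2 fold change -1.03 ± 0.13, SE, adjusted p = 6.98e-05). Tnc, the matrix glycoprotein tenascin C, was at 0.8496, 2.12 and 6.81 CPM in FS and 108, 80.9 and 112 CPM in AF (log2 fold change -5.07 ± 0.52, SE, adjusted p = 6.92e-05). FS and AF samples did not overlap for any of the 3. Tgfbi, a matrix protein induced by TGF-beta, had a log2 fold change of -4.44 ± 0.38 (adjusted p = 3.01e-06). Hspg2, the proteoglycan perlecan, was not called at 233, 308 and 564 CPM in FS and 398, 689 and 408 CPM in AF (log2 fold change -0.55 ± 0.26, SE, adjusted p = 0.169), with an adjusted p of 0.0183 without line 2 at passage 12. Postn, a matrix protein that is also a fibroblast marker, fell with a log2 change of -4.32 ± 0.73 (adjusted p = 0.000831), and in line 2 it was at 0.0852, 0 and 0 CPM.

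Enzymes that cross-link or remodel matrix were lower in 15 of 33 cases (45.5%) and higher in 2, with a median of -0.71. Plaur, the urokinase receptor, was at 0.129, 0.342 and 2.13 CPM in FS and 11.2, 10.96 and 11.2 CPM in AF (log2 fold change -3.96 ± 0.56, SE, adjusted p = 0.000269). The protease Adamts1 had a log2 change of -1.55 ± 0.20 (adjusted p = 8.20e-05) and the collagen chaperone Serpinh1 one of -0.72 ± 0.12 (adjusted p = 0.000689). Every FS sample was below every AF sample for these 3 genes. Integrins, the receptors that bind matrix, were lower in 9 of 18 cases (50%) and higher in 0, with a median of -0.73. Itga5, a fibronectin receptor subunit, was at 23.5, 31.8 and 41.5 CPM in FS and 59.4, 84.3 and 65.96 CPM in AF (log2 fold change -1.1 ± 0.16, SE, adjusted p = 0.000234). Itgav, a subunit of receptors for several matrix ligands, was at 35.5, 42.5 and 47.3 CPM in FS and 77.9, 80.9 and 72.5 CPM in AF (log2 fold change -0.86 ± 0.11, SE, adjusted p = 7.79e-05). The laminin receptor subunit Itga3 fell with a log2 change of -1.43 ± 0.22 (adjusted p = 0.000599) and Itga8 with -3.07 ± 0.45 (adjusted p = 0.000275). Genes for heparan sulfate proteoglycans and their enzymes went both ways, with 7 lower, 4 higher and 26 tested. The syndecan Sdc2 rose with a log2 fold change of 1.55 ± 0.23 (adjusted p = 0.000316), while the sulfotransferase Hs3st3b1 fell with -6.01 ± 0.82 (adjusted p = 0.000364) and the glypican Gpc4 with -0.98 ± 0.18 (adjusted p = 0.00191). The count of higher members of this list was 1 without the AF sample at passage 16, and that of lower members was 4 with line as a random block.

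Among regulators of epithelial to mesenchymal transition, keratins and junction genes, more members were lower than higher in FS. Of 14 transition regulators, 9 were lower (64.3%) and 1 was higher, with a median of -1.89. Vim, the mesenchymal intermediate filament vimentin, was at 182, 215 and 247 CPM in FS and 544, 459.5 and 752 CPM in AF (log2 fold change -1.45 ± 0.15, SE, adjusted p = 1.54e-05). The ligand Tgfb1 was at 1.19, 2.26 and 4.37 CPM in FS and 9.97, 24.7 and 11.4 CPM in AF (log2 fold change -2.67 ± 0.41, SE, adjusted p = 0.000408). Tgfb2 fell with a log2 fold change of -3.43 ± 0.66 (adjusted p = 0.00454). Keratins, the intermediate filaments of epithelia, were lower in 4 of 8 cases. Krt8 was at 10.1, 25.6 and 56.1 CPM in FS and 159, 319 and 256 CPM in AF (log2 fold change -3.03 ± 0.45, SE, adjusted p = 0.00104). Its partner Krt18 was at 23.5, 42.4 and 68.96 CPM in FS and 123, 451 and 187 CPM in AF (log2 fold change -2.59 ± 0.39, SE, adjusted p = 0.000988). Krt7 fell with a log2 fold change of -3.93 ± 0.60 (adjusted p = 0.000459). So Vim, Krt8 and Krt18 moved in the same direction, and for these genes no FS sample reached the lowest AF sample. The other 4 of the 8 keratins tested were not called. Of 30 genes of tight junctions, desmosomes and polarity, 10 were lower (33.3%), 1 was higher and the other 19 were not called. The polarity gene Llgl2 was at 6.52, 11.2 and 16.5 CPM in FS and 30.04, 57.6 and 30.4 CPM in AF (log2 fold change -1.76 ± 0.28, SE, adjusted p = 0.000529). The desmosomal genes Dsg2, Jup and Pkp2 fell with log2 fold changes of -1.21 ± 0.20 (adjusted p = 0.000755), -0.78 ± 0.17 (adjusted p = 0.00449) and -0.56 ± 0.12 (adjusted p = 0.00557). Cadherins and catenins were lower in 3 of 12 cases and higher in 1, the latter 3 without AF at passage 14 and 2 without line 1 at passage 10. Ctnna1, the alpha-catenin that links cadherins to actin, was at 210.5, 245 and 269 CPM in FS and 386, 447 and 398 CPM in AF (log2 fold change -0.75 ± 0.10, SE, adjusted p = 0.000103). Ctnnb1, beta-catenin, was not called (log2 fold change 0.2 ± 0.09, SE, adjusted p = 0.129).

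Counted together, the 8 lists on matrix, adhesion, epithelium and cytoskeleton held 198 different tested genes, of which 99 were lower in FS (50%), 5 were higher, and the median log2 fold change was -0.85. Without the AF sample at passage 15 the count of lower genes was 82, and without that at passage 16 the count of higher genes was 1; it was 3 without AF at passage 14 or without line 2 at passage 16. The lists on heparan sulfate proteoglycans and on cadherins are not in this total. With them it was 109 lower (46.2%) and 10 higher (3 without AF at passage 16) of 236 genes, with a median of -0.71. In AFX the mean level was 10.3 CPM for Acta2, 2.75 CPM for Tnc, 8.87 CPM for Nid1, 66.7 CPM for Krt8 and 448 CPM for Vim. Krt8 lies on chromosome 15, where the AFX samples were shifted as a whole, as given with the chromosomes. Each of these 5 means is below the lowest AF sample, closely so for Vim, and above the FS median except for Nid1.

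**Figure D2:**
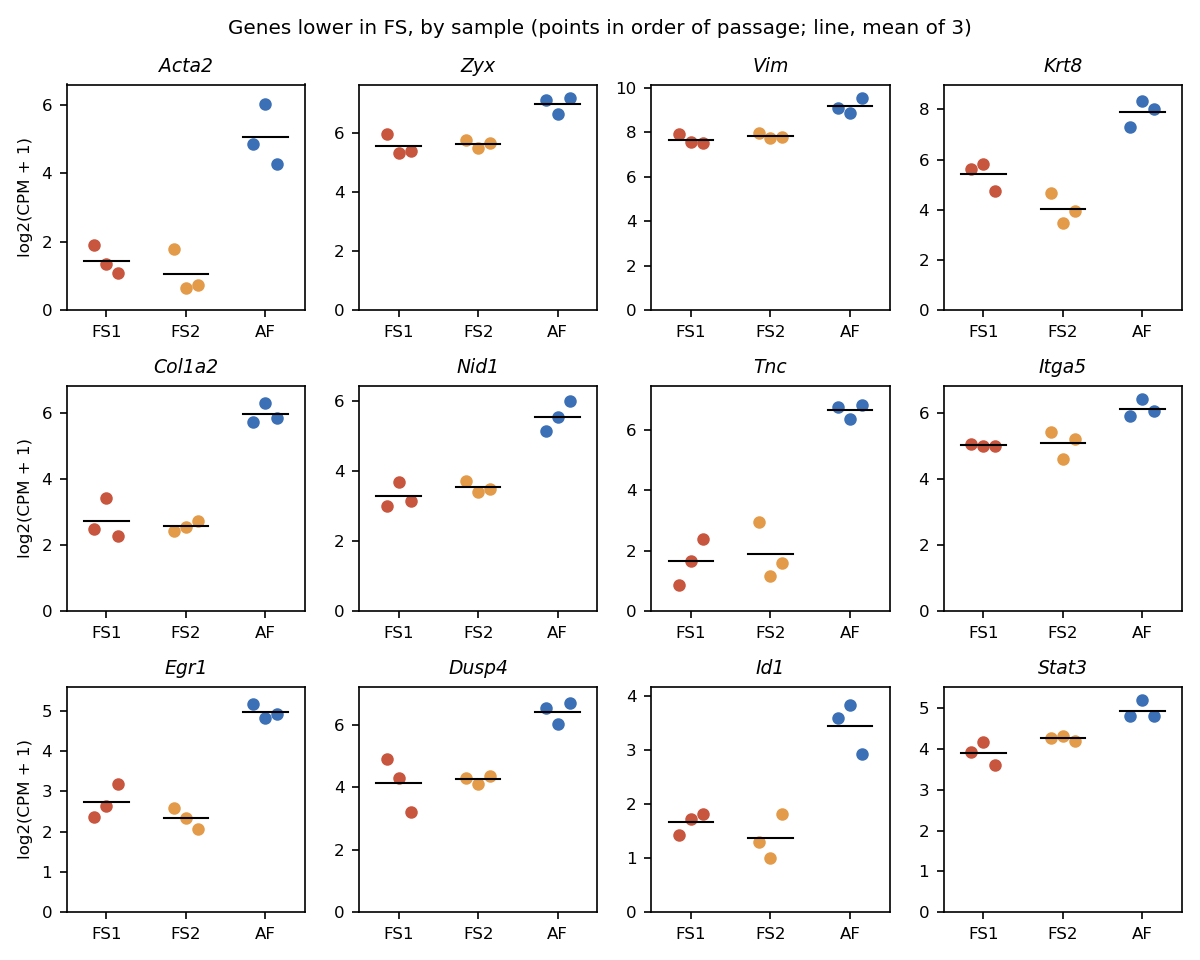
Level of 12 genes lower in FS as log2(CPM + 1) in each sample of FS line 1 (FS1), FS line 2 (FS2) and AF; points stand in order of passage and the line is the mean of 3 samples. In every panel the 3 AF points lie above all 6 FS points.

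Immediate early genes are transcribed within minutes of a growth factor or stress signal without new protein synthesis. Of 22 tested, 11 were lower in FS (50%), 0 were higher and the median was -1.06. Egr1, a zinc finger factor induced by ERK signalling, was at 3.196, 4.58 and 8.104 CPM in FS and 35.2, 27.4 and 29.1 CPM in AF (log2 fold change -2.62 ± 0.37, SE, adjusted p = 0.000371). Junb, a subunit of the AP-1 factor, was at 0.674, 2.204 and 3.47 CPM in FS and 10.9, 16.6 and 13.7 CPM in AF (log2 fold change -2.66 ± 0.38, SE, adjusted p = 0.000214). Jund, another subunit, was at 41.03, 50.3 and 68.1 CPM in FS and 104, 154 and 84.1 CPM in AF (log2 fold change -1.14 ± 0.17, SE, adjusted p = 0.000386). The orphan nuclear receptor Nr4a1 fell with a log2 fold change of -1.74 ± 0.28 (adjusted p = 0.000521). In all 4 genes the samples of the groups were separate.

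Genes of FGF signalling and of its feedback on ERK, the kinase at the end of the pathway, were lower in 13 of 29 cases (44.8%) and higher in 1, with a median of -0.66. Dusp4 and Dusp5 are phosphatases that are induced by ERK and switch it off. Dusp4 was at 8.19, 18.7 and 28.99 CPM in FS and 91.6, 63.4 and 103 CPM in AF (log2 fold change -2.23 ± 0.27, SE, adjusted p = 0.000115). Dusp5 was at 2.14, 4.59 and 7.204 CPM in FS and 15.6, 19.4 and 16.5 CPM in AF (log2 fold change -1.93 ± 0.29, SE, adjusted p = 0.000314). Il17rd, an FGF antagonist also called Sef, was at 58.9, 74.5 and 94.3 CPM in FS and 183, 169 and 193 CPM in AF (log2 fold change -1.26 ± 0.18, SE, adjusted p = 0.000217). Phlda1, an early response gene, fell with a log2 fold change of -3.09 ± 0.43 (adjusted p = 0.000237). Dusp4, Dusp5 and Il17rd, picked for a small adjusted p, separated the groups, while 15 of the 29 members were not called. Among the latter, the receptor Fgfr1 was at 151, 195 and 198 CPM in FS and 151, 151 and 151 CPM in AF (log2 fold change 0.29 ± 0.12, SE, adjusted p = 0.0992). Its adjusted p was 0.0467 without line 2 at passage 13.

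The BMP list, with ligands, inhibitors and the ID genes that BMP signalling induces, had 14 of 28 members lower (50%) and 1 higher, with a median of -1.25. The ligand Bmp2 was at 0, 0.395 and 1.91 CPM in FS and 32.2, 34.1 and 47.6 CPM in AF (log2 fold change -5.88 ± 0.64, SE, adjusted p = 8.25e-05). Id1, a target that blocks bHLH factors, was at 1.01, 2.01 and 2.53 CPM in FS and 11.03, 13.2 and 6.61 CPM in AF (log2 fold change -2.4 ± 0.31, SE, adjusted p = 9.99e-05). Of the receptors, Bmpr2 fell with a log2 change of -0.63 ± 0.11 (adjusted p = 0.00124), and Bmpr1a was not called (log2 fold change 0.12 ± 0.10, SE, adjusted p = 0.443). Ligand and target were separate between the groups, while Bmpr1a overlapped. In the pathway of the cytokine LIF and its transcription factor STAT3, 8 of 14 members were lower (57.1%), 0 were higher and the median was -0.88. The receptor Lifr was at 10.8, 15.3 and 18.7 CPM in FS and 32.8, 32.8 and 38.5 CPM in AF (log2 fold change -1.2 ± 0.16, SE, adjusted p = 0.000167). The kinase Jak2 was at 4.27, 5.59 and 9.65 CPM in FS and 16.1, 31.5 and 20.02 CPM in AF (log2 fold change -1.84 ± 0.29, SE, adjusted p = 0.000455). Stat3 itself was at 11.2, 16.99 and 18.9 CPM in FS and 26.6, 35.2 and 26.9 CPM in AF (log2 fold change -0.88 ± 0.18, SE, adjusted p = 0.00314). The target Pim1, a kinase, fell with a log2 fold change of -2.24 ± 0.43 (adjusted p = 0.00287). The other 6 members were not called. Of these the kinase Jak1 was at 36.8, 43.1 and 59.95 CPM in FS and 53.04, 71.5 and 55.2 CPM in AF (log2 fold change -0.4 ± 0.15, SE, adjusted p = 0.0716), with an adjusted p of 0.0166 without line 2 at passage 12. Pim3, a kinase related to Pim1, was at 16.6, 19.9 and 35.9 CPM in FS and 30.3, 62.6 and 28.2 CPM in AF (log2 fold change -0.8 ± 0.27, SE, adjusted p = 0.0552), and its adjusted p was 0.0497 and 0.0377 without AF at passages 14 and 16, 0.0153 without line 2 at passage 12 and 0.0238 in DESeq2. The naive pluripotency markers moved with this list, and their part in it was not tested.

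Among 29 targets of YAP and TEAD, factors that respond to cell density and tension, 13 were lower (44.8%) and 1 was higher; without the AF sample at passage 15 the count of lower genes was 8. Tead4 itself was at 0.787, 2.104 and 3.09 CPM in FS and 8.77, 14.7 and 11.6 CPM in AF (log2 fold change -2.52 ± 0.37, SE, adjusted p = 0.000277). The membrane protein gene Myof, the ectoenzyme gene Nt5e and Igfbp3, a binding protein of insulin-like growth factors, fell with log2 fold changes of -3.59 ± 0.45 (adjusted p = 0.000123), -5.19 ± 0.70 (adjusted p = 0.000181) and -3.99 ± 0.63 (adjusted p = 0.00172). The insulin and IGF list had 7 of 20 members lower (35%) and 1 higher, the latter 4 without AF at passage 15. The ligand Igf2 was at 12.6, 21 and 53.3 CPM in FS and 315, 288 and 128 CPM in AF (log2 fold change -3.31 ± 0.42, SE, adjusted p = 0.000312). The kinase Akt1 was at 20.3, 27.7 and 35.2 CPM in FS and 57.2, 52.3 and 64.5 CPM in AF (log2 fold change -1.07 ± 0.17, SE, adjusted p = 0.000421). Ligand and kinase were lower in every FS sample than in every AF sample.

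WNT receptors and secreted modulators had 10 of 29 members lower (34.5%) and 3 higher, the latter 1 without AF at passage 15 or line 2 at passage 16. The WNT receptor Fzd5 was at 35.4, 41.7 and 64.7 CPM in FS and 109, 156 and 149.8 CPM in AF (log2 fold change -1.57 ± 0.27, SE, adjusted p = 0.00149). Fzd8, another receptor, was at 3.66, 6.65 and 9.52 CPM in FS and 20.6, 22.02 and 28.8 CPM in AF (log2 fold change -1.87 ± 0.27, SE, adjusted p = 0.000275). The antagonist Sfrp5 was lower as well (log2 fold change -6.01 ± 0.75, SE, adjusted p = 0.000113). In the NOTCH pathway, 3 of 24 members were lower and 2 were higher, near the background, with 5 lower without line 1 at passage 11 and 4 higher without AF at passage 15 or line 2 at passage 13. The ligand Jag1 and the target Hes1 fell with log2 fold changes of -1.02 ± 0.16 (adjusted p = 0.000438) and -1.56 ± 0.32 (adjusted p = 0.00364), and the ligand Dll1 rose with 2.04 ± 0.45 (adjusted p = 0.00608). Among 16 retinoid genes, 6 were lower (37.5%) and 2 were higher, the latter 1 without AF at passage 14 and 1 with line as a random block. Cyp26a1, which degrades retinoic acid and is induced by it, was at 0, 2.47 and 10.7 CPM in FS and 94.4, 56.6 and 142 CPM in AF (log2 fold change -4.55 ± 0.90, SE, adjusted p = 0.00627). The retinol dehydrogenase gene Rdh11 fell with a log2 change of -0.64 ± 0.14 (adjusted p = 0.00415), and Crabp2, a retinoic acid carrier, rose with 1.91 ± 0.39 (adjusted p = 0.00436).

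Guidance genes, which steer migrating cells and axons, had 21 of 64 members lower (32.8%) and 6 higher. The count of higher members was 3 without the AF sample at passage 14 and 10 without that at passage 15, and 3 with line as a random block. Nrp2, a semaphorin receptor, was at 3.83, 5.32 and 9.24 CPM in FS and 51.4, 50.9 and 38.3 CPM in AF (log2 fold change -2.96 ± 0.27, SE, adjusted p = 5.38e-06). The semaphorin Sema6d was at 0.852, 1.802 and 3.505 CPM in FS and 31.8, 31.5 and 38.1 CPM in AF (log2 fold change -4.19 ± 0.41, SE, adjusted p = 2.01e-05). The semaphorin Sema3f and the secreted cue Slit2 fell with log2 fold changes of -1.43 ± 0.17 (adjusted p = 4.29e-05) and -3.6 ± 0.43 (adjusted p = 0.000179). All 4 were lower in every FS sample. In the interferon response and MHC class I list, 10 of 37 members were lower (27%) and 4 were higher, while the list median was 0.07. Against AF the list median was -0.76 in line 1 and 0.17 in line 2, and 12 members were higher with line 2 alone. Without the genes of chromosomes 11 and 17, 5 of 27 members were lower and 1 was higher. Irf1, a factor that activates antigen presentation genes, was at 7.42, 9.31 and 10.2 CPM in FS and 28.98, 20.7 and 40.8 CPM in AF (log2 fold change -1.77 ± 0.20, SE, adjusted p = 3.06e-05). Tapbp, which helps to load peptide on MHC class I, was at 12.4, 15.9 and 19.9 CPM in FS and 33.8, 34.03 and 48.04 CPM in AF (log2 fold change -1.25 ± 0.16, SE, adjusted p = 0.000103). Psmb10, a subunit of the immunoproteasome, fell with a log2 fold change of -2.02 ± 0.33 (adjusted p = 0.000647). The guanylate binding protein Gbp2 fell with -4.34 ± 0.49 (adjusted p = 5.42e-05). The AFX mean was 7.32 CPM for Irf1, 9.15 CPM for Tapbp and 0.726 CPM for Gbp2, which is below the lowest AF sample in each case. The higher members numbered 2 without the AF sample at passage 14 and 2 without that at passage 16.

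Some gene lists had more members higher than lower in FS. Replication-dependent histone genes, which supply histones in S phase, had 24 of 64 members higher (37.5%), 1 lower and a median of 0.46. Near-identical copies share reads in this family, so single members are uncertain. The linker histone gene Hist1h1e was at 514, 682 and 711 CPM in FS and 438, 394 and 381 CPM in AF (log2 fold change 0.67 ± 0.12, SE, adjusted p = 0.00128). Hist3h2ba, Hist1h2ao and Hist1h4c had log2 fold changes of 1.53 ± 0.20 (adjusted p = 0.000113), 0.95 ± 0.14 (adjusted p = 0.000327) and 1.31 ± 0.21 (adjusted p = 0.000506). Without the AF sample at passage 15 the count of higher histone genes was 14. The genes of homologous recombination and Fanconi repair, which mend double-strand breaks and DNA crosslinks, were higher in 9 of 25 cases (36%) and lower in 0, with a median of 0.26. Brip1, a helicase that binds BRCA1, was at 21.4, 26.8 and 38.05 CPM in FS and 13.3, 12.7 and 15.8 CPM in AF (log2 fold change 0.97 ± 0.19, SE, adjusted p = 0.00221). Rad54l, a motor protein of strand exchange, was at 55.1, 62.4 and 65.95 CPM in FS and 42.7, 32.1 and 44.6 CPM in AF (log2 fold change 0.63 ± 0.12, SE, adjusted p = 0.00243). Brca2, a mediator of strand exchange, was at 115, 132 and 145 CPM in FS and 109, 78.9 and 87.97 CPM in AF (log2 fold change 0.51 ± 0.12, SE, adjusted p = 0.00691). The 3 repair genes were separate between the groups although the changes were under 2-fold. In the DNA replication list 4 of 38 members were higher and 0 lower, which is close to the background. The polymerase genes Pola1 and Pole rose with log2 fold changes of 0.47 ± 0.09 (adjusted p = 0.00257) and 0.52 ± 0.11 (adjusted p = 0.00476), and the helicase subunit Mcm3 was not called (log2 fold change 0.17 ± 0.12, SE, adjusted p = 0.344). Leaving out 1 sample in turn gave between 2 and 8 higher replication genes, with 2 each without AF at passage 15 or 16, 7 without AF at passage 14 and 8 without line 1 at passage 11.

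Of 30 purine and pyrimidine genes, 5 were higher (16.7%) and 0 lower, and 2 were higher without the AF sample at passage 15. Without X and Y genes 3 of 26 were higher. The salvage enzyme Hprt was at 61.8, 69.7 and 89.4 CPM in FS and 0.266, 0.189 and 0.701 CPM in AF (log2 fold change 7.49 ± 0.35, SE, adjusted p = 2.75e-09). All AF samples carry E14 in their descriptions, so cell line and medium cannot be told apart for Hprt. Prps1, which makes the ribose donor of nucleotides, was at 61.7, 72.97 and 91.5 CPM in FS and 50.5, 54.9 and 39.5 CPM in AF (log2 fold change 0.62 ± 0.14, SE, adjusted p = 0.00579; line 1 against AF alone, log2 fold change 0.43, adjusted p = 0.0626). Gart, a trifunctional enzyme of purine synthesis, was not called (log2 fold change 0.23 ± 0.12, SE, adjusted p = 0.191). Of 29 amino acid transporters, 4 were higher and 6 lower, with 2 higher without AF at passage 15 and 3 lower without AF at passage 16. The glutamine transporter gene Slc1a5 was at 77.5, 103 and 152 CPM in FS and 31.8, 33.6 and 27.5 CPM in AF (log2 fold change 1.79 ± 0.23, SE, adjusted p = 0.000122). Slc38a4 and Slc7a7, other amino acid transporters, fell with log2 fold changes of -2.27 ± 0.38 (adjusted p = 0.00163) and -1.5 ± 0.23 (adjusted p = 0.000505), so transporters differed in direction. Among antioxidant genes that NRF2 controls, 4 of 28 were higher and 2 lower. The ferritin light chain gene Ftl1 was at 228, 262 and 306 CPM in FS and 49.9, 85.6 and 57.9 CPM in AF (log2 fold change 2.02 ± 0.19, SE, adjusted p = 7.48e-06). The glutathione transferases Gstp1 and Gsta4 rose with log2 fold changes of 1.36 ± 0.14 (adjusted p = 2.16e-05) and 0.84 ± 0.12 (adjusted p = 0.000234). Ferritin light chain has many processed copies in the mouse genome, so the level of Ftl1 is uncertain.

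Genes of microtubules changed in both directions. Tubb3, the tubulin isotype of neurons, was at 42.2, 52.6 and 59.1 CPM in FS and 15.2, 11.2 and 8.51 CPM in AF (log2 fold change 2.13 ± 0.19, SE, adjusted p = 3.12e-06). Tubb4a was at 52.6, 61.6 and 116 CPM in FS and 24.5, 23.4 and 23.5 CPM in AF (log2 fold change 1.58 ± 0.23, SE, adjusted p = 0.000275). Tubb6 and Tubb2b fell with log2 fold changes of -1.11 ± 0.12 (adjusted p = 2.88e-05) and -0.81 ± 0.17 (adjusted p = 0.0041) and Tuba1a was not called (log2 fold change 0.21 ± 0.10, SE, adjusted p = 0.165). Of 14 tubulin genes tested, 4 were lower (28.6%) and 2 were higher, and with line as a random block 2 were lower. Of 36 kinesins, motors that walk along microtubules, 6 were higher (16.7%) and 2 lower. Kif5a, a neuronal kinesin heavy chain, was at 28.7, 35.5 and 46.3 CPM in FS and 8.38, 9.64 and 4.704 CPM in AF (log2 fold change 2.27 ± 0.24, SE, adjusted p = 2.27e-05). Kif5c rose with a log2 fold change of 0.9 ± 0.19 (adjusted p = 0.00423). The ubiquitous Kif5b was not called (log2 fold change 0.25 ± 0.10, SE, adjusted p = 0.108). Kif26b fell with -4.01 ± 0.65 (adjusted p = 0.000985). The count of higher kinesins was 2 without the AF sample at passage 16 and 3 each without AF at passage 14 and without line 2 at passage 12 or 16. Potassium channel genes were higher in 7 of 38 cases (18.4%) and lower in 4, the latter 2 without AF at passage 15. The channel subunit gene Kcns3 fell with -3.71 ± 0.69 (adjusted p = 0.00225).

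Cilium genes were higher in 6 of 40 cases (15%) and lower in 1. Dync2h1, the dynein that returns cargo from the ciliary tip, was at 91.96, 117 and 131 CPM in FS and 65.3, 50.3 and 66.6 CPM in AF (log2 fold change 0.93 ± 0.14, SE, adjusted p = 0.000294). The transport subunit Ift27 was at 13.8, 16.6 and 20.9 CPM in FS and 8.38, 5.48 and 7.01 CPM in AF (log2 fold change 1.29 ± 0.22, SE, adjusted p = 0.000768). Cep290, a protein of the ciliary gate, was not called (log2 fold change 0.19 ± 0.10, SE, adjusted p = 0.223). Clustered protocadherins, surface proteins that give neurons individual identities, were higher in 12 of 37 cases (32.4%) and lower in 0. Genes of the alpha and gamma clusters share exons, so single members are uncertain. Their count fell to 2 without AF at passage 16, to 3 without line 2 at passage 16, to 6 without AF at passage 15, and to 7 each without AF at passage 14, line 1 at passage 18 or line 2 at passage 13. With line as a random block it was 4. The 345 numbered zinc finger genes tested had 45 higher (13%) and 16 lower members. The higher count was 26 and 25 without the AF samples at passages 14 and 16. With line as a random block it was 23, while 899 of all 16052 genes were higher in that fit. Zfp994 and Zfp27 rose with log2 fold changes of 1.06 ± 0.16 (adjusted p = 0.00042) and 1.11 ± 0.17 (adjusted p = 0.000452), and Zfp703 and Zfp984 fell with -3.02 ± 0.31 (adjusted p = 1.39e-05) and -1.82 ± 0.21 (adjusted p = 4.48e-05). Many of these genes lie in clusters of related copies, which makes single members uncertain.

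**Figure D3:**
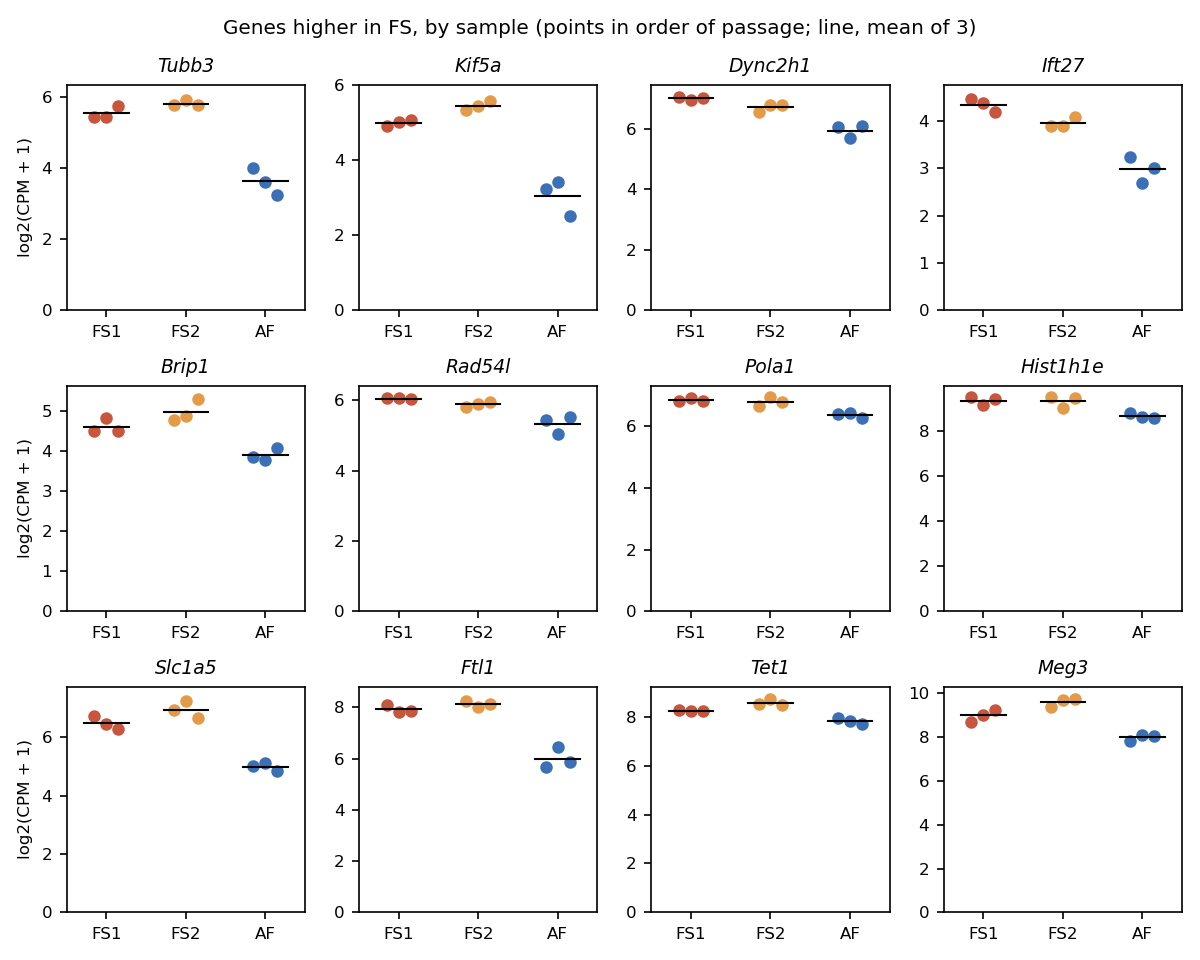
Level of 12 genes higher in FS as log2(CPM + 1) in each sample of FS line 1 (FS1), FS line 2 (FS2) and AF; points stand in order of passage and the line is the mean of 3 samples. All 6 FS points lie above all 3 AF points in each panel, by less than 1 unit of log2 in Pola1 and Rad54l and by more in Tubb3.

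Imprinted genes, expressed from 1 parental copy, changed in both directions: 8 of 40 were higher (20%) and 11 were lower (27.5%), with 7 lower without AF at passage 15. Peg10, a paternally expressed gene derived from a retrotransposon, was at 25.2, 38.9 and 58.7 CPM in FS and 434, 435 and 512 CPM in AF (log2 fold change -3.55 ± 0.24, SE, adjusted p = 9.81e-07). Meg3, a maternally expressed long non-coding RNA, was at 414, 637 and 841 CPM in FS and 222, 273 and 262 CPM in AF (log2 fold change 1.35 ± 0.20, SE, adjusted p = 0.000286). The maternally expressed Phlda2 and Cdkn1c, a growth regulator and a CDK inhibitor, fell with log2 fold changes of -1.97 ± 0.30 (adjusted p = 0.000326) and -1.06 ± 0.17 (adjusted p = 0.00048). Of these 4 genes, the maternally expressed ones thus went both ways. Among G1 regulators, 7 of 28 were lower (25%) and 1 was higher, Rbl1, a retinoblastoma relative (log2 fold change 0.63 ± 0.11, SE, adjusted p = 0.00121). Tet1, which oxidises methylated cytosine, was at 299, 329.9 and 427 CPM in FS and 248, 224 and 205 CPM in AF (log2 fold change 0.6 ± 0.12, SE, adjusted p = 0.00262). Of 44 splicing factors, 6 were higher and 4 lower. The higher count was 3 without any single one of the AF samples, line 1 at passage 10 or 18, or line 2 at passage 13 or 16, and the lower count was 2 without AF at passage 14 or 15. With line as a random block 3 were higher and 2 lower. Ptbp2 and Hnrnph3 rose with 0.68 ± 0.12 (adjusted p = 0.0008) and 0.73 ± 0.13 (adjusted p = 0.00155), and Mbnl1, a splicing factor of differentiated cells, fell with -1.21 ± 0.23 (adjusted p = 0.00219). Of 19 clock genes, 3 were higher and 2 lower, with 6 higher without AF at passage 15. Tef and Cry2 rose with 0.9 ± 0.12 (adjusted p = 0.000178) and 0.62 ± 0.13 (adjusted p = 0.00358). The heat shock list had 7 of 19 members lower and 0 higher, but 4 without AF at passage 15 and 2 without AF at passage 16. It was 4 with line as a random block and 2 without the low-count filter. The co-chaperone gene Bag3 fell with a log2 fold change of -0.73 ± 0.12 (adjusted p = 0.000469).

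A group of housekeeping lists changed little, but some lists with larger shares stand outside it. In 12 lists for ribosomes, mitochondria, central metabolism, protein quality and chromatin remodelling, 466 different genes were tested, 17 were higher (3.65%) and 32 were lower (6.87%), both under the shares of all genes. Their median log2 fold change was -0.00500, and 92.3% of them differed by less than 1.5-fold, against 69.4% of all genes tested. The lower count was 20 without the AF sample at passage 14 and 21 with line as a random block. With line 1 alone 10 were higher and 19 lower, and with line 2 alone 35 were higher (7.51%) and 39 lower. The lists on mitosis (13.9% higher), splicing factors (13.6%) and fatty acid oxidation (14.3%) are not in this total. Its small change therefore follows in part from the choice of lists. Messenger RNAs of the mitochondrial genome (2 of 13 lower, median -0.26) and the heat shock genes are not in this total. With them it was 17 higher and 41 lower (8.23%) of 498 genes, and 26 were lower without AF at passage 14 or 16. None of the 20 tRNA synthetases was called by edgeR; the glutamyl-prolyl synthetase Eprs, for example, was at 532, 577 and 691 CPM in FS and 562, 472 and 509 CPM in AF (log2 fold change 0.2 ± 0.10, SE, adjusted p = 0.185). The ATP synthase subunit Atp5b had a log2 change of 0.12 ± 0.09 (adjusted p = 0.366) and the glycolytic enolase Eno1 one of 0.05 ± 0.09 (adjusted p = 0.735). The chromatin remodeller Chd4 was at -0.13 ± 0.09 (adjusted p = 0.357) and the ribosomal protein gene Rpl4 at 0.13 ± 0.09 (adjusted p = 0.381) on the same scale. The groups overlapped in these 5 genes. Within these lists a few genes did change: Wdr43, of ribosome assembly, rose with 0.87 ± 0.15 (adjusted p = 0.00115), the lactate dehydrogenase Ldhb with 0.82 ± 0.15 (adjusted p = 0.00121) and the stress gene Sesn2 with 0.66 ± 0.12 (adjusted p = 0.00167), while the monocarboxylate transporter Slc16a1 fell with -1.3 ± 0.13 (adjusted p = 1.24e-05).

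Some ribosomal protein genes stood apart from their list, which had 3 higher and 9 lower of 78 members. The lower count was 5 without AF at passage 15, and the higher count was 5 without line 1 at passage 11. Rplp0 was at 1334, 1504 and 1648 CPM in FS and 643, 609 and 612 CPM in AF (log2 fold change 1.26 ± 0.09, SE, adjusted p = 5.02e-07). The AFX mean was 639.5 CPM. Rps18 was at 128, 142 and 181 CPM in FS and 396, 477 and 358 CPM in AF (log2 fold change -1.45 ± 0.12, SE, adjusted p = 2.71e-06), with 414 CPM in AFX, and Rps2 was at 223, 256 and 333 CPM in FS and 483, 612 and 467 CPM in AF (log2 fold change -0.98 ± 0.13, SE, adjusted p = 0.000113), with 531 CPM in AFX. In the 3 genes the AFX mean lies near the AF samples and far from FS. Ribosomal protein genes have many processed copies that can share reads, so these levels are uncertain. The desaturase gene Scd1, of fatty acid synthesis, was at 1.39, 7.97 and 13.9 CPM in FS and 256, 331 and 239.8 CPM in AF (log2 fold change -5.19 ± 0.51, SE, adjusted p = 7.79e-05), also with an AFX mean near AF, at 308 CPM. The mitosis list had 5 of 36 members higher (13.9%) and 1 lower. The higher count was 0 without AF at passage 16, 1 without AF at passage 15, 2 without AF at passage 14 or line 2 at passage 12, 13 or 16, and 3 without line 1 at passage 10 or with line as a random block. The member that fell was Anln, a scaffold of the cytokinetic ring (log2 fold change -0.73 ± 0.11, SE, adjusted p = 0.000286).

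**Figure D4:**
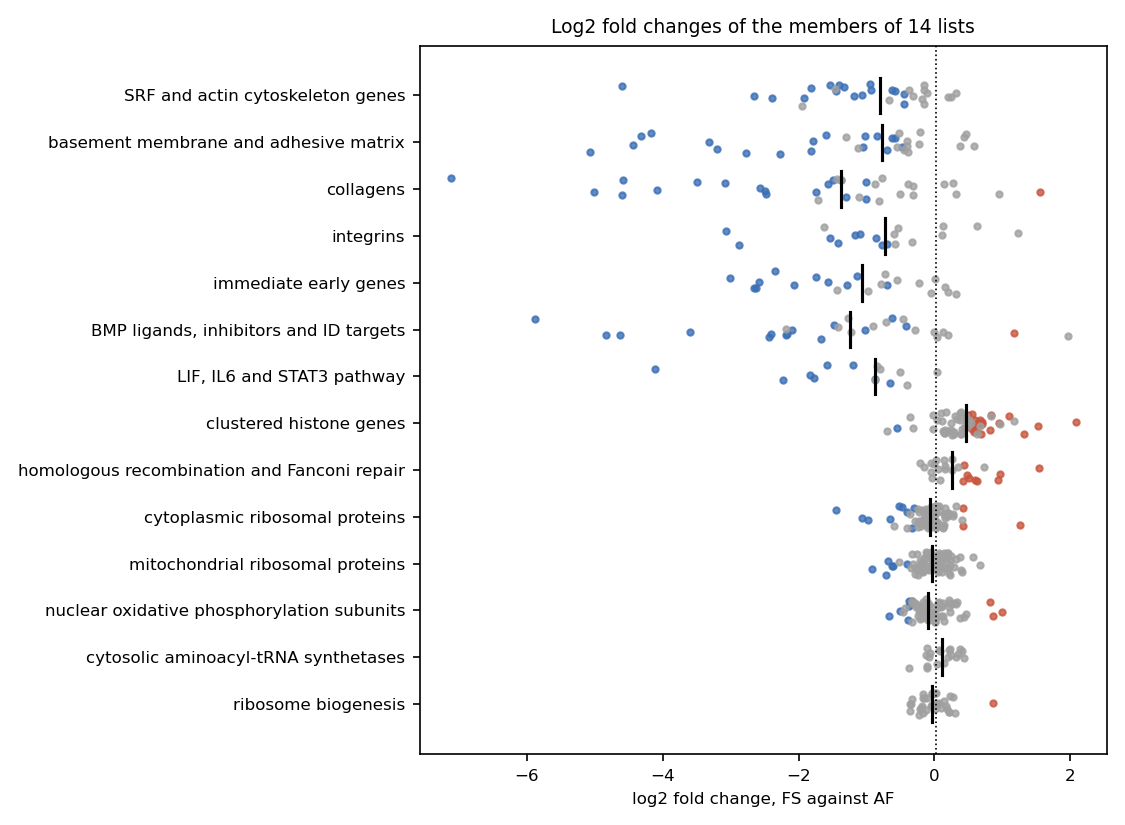
Log2 fold change of FS against AF for each tested member of 14 lists; red points were called higher, blue points lower and grey points were not called, the bar is the list median and the dotted line the median of all genes tested. Members of the matrix and signalling lists spread to the left as far as -7.12, whereas those of the housekeeping lists crowd around 0.

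The largest changes were picked by size among genes called in each line, without overlap and reaching a mean of 10 CPM in FS or in AF. The 12 largest rises were Hprt, Ccl19, Ccdc177, Ankrd35, A3galt2, Ttbk1, Ehd3, Abcc8, Myt1l, Trim66, Aqp11 and Sdk2. Ccl19, a chemokine of lymphoid tissue, was at 11.2, 11.9 and 17.9 CPM in FS and 0, 0.283 and 0 CPM in AF; AF held 3 counts in all, and the ratio of FS to AF was 119 with a 95% counting interval from 40.6 to 578. Ehd3, an endosomal ATPase, was at 32.5, 51.3 and 61.6 CPM in FS and 4.39, 1.51 and 4.003 CPM in AF (log2 fold change 3.91 ± 0.31, SE, adjusted p = 1.21e-06). Abcc8, the sulfonylurea receptor, Myt1l, a neuronal zinc finger factor, and the kinase gene Ttbk1 rose with log2 fold changes of 3.82 ± 0.47 (adjusted p = 6.98e-05), 3.8 ± 0.56 (adjusted p = 0.000369) and 4.39 ± 0.60 (adjusted p = 0.000199). The water channel Aqp11 and the adhesion gene Sdk2 rose with 3.31 ± 0.41 (adjusted p = 7.16e-05) and 3.31 ± 0.58 (adjusted p = 0.00191), and Trim66 with 3.32 ± 0.70 (adjusted p = 0.00474). For Ccdc177 AF held 7 counts in all, and the ratio of FS to AF was 54.2 with a counting interval from 26.2 to 135. A3galt2, a glycosyltransferase gene, rose with 5.16 ± 0.91 (adjusted p = 0.002). In limma with line as a random block its log2 fold change was 5.82 (adjusted p = 0.118). Ankrd35 was at 1.02, 10.9 and 25.97 CPM in FS and 0.399, 0.283 and 0.2002 CPM in AF (log2 fold change 5.29 ± 1.56, SE, adjusted p = 0.0361), with 8 counts in AF in all. Its adjusted p was 0.102, 0.122 and 0.135 without the AF sample at passage 14, 15 and 16, 0.0869 without the low-count filter, 0.0729 with the 9 samples alone and 0.471 in limma with line as a random block. Its log2 fold change was 5.51, 5.28 and 5.07 without these AF samples in turn, and 3.69 in limma. In line 2 against AF alone its log2 fold change was 1.92 (adjusted p = 0.0628).

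The 12 largest falls were Gbp2b, Pga5, Insig1, Prdm1, Trh, Slc15a2, Emp1, Sox17, Foxq1, Col3a1, Gata6 and Anxa1. Trh, the precursor of thyrotropin-releasing hormone, was at 0.1703, 1.53 and 5.84 CPM in FS and 804, 412 and 723 CPM in AF (log2 fold change -8.18 ± 0.89, SE, adjusted p = 0.000221). The endoderm factor Sox17 fell with -7.27 ± 0.98 (adjusted p = 0.000419). It had no count in line 2, so its 13 FS counts all came from line 1. In 9 of these genes FS held 1 to 10 counts in all, so ratios of AF to FS are given with 95% intervals that cover counting error only. Insig1, a sensor of sterols in the endoplasmic reticulum, was at 0, 0.0562 and 0.348 CPM in FS and 50.9, 51.3 and 37.8 CPM in AF (adjusted p = 6.46e-10), with 104 CPM in AFX. FS held 6 counts and AF 1304, a ratio of 510 (234 to 1391). Emp1, a membrane protein of epithelia, was at 0, 0.0603 and 0.256 CPM in FS and 24.5, 19.5 and 18.3 CPM in AF, a ratio of 192 (92.6 to 480). Anxa1, a calcium-dependent membrane binder, was at 0, 0.141 and 0.319 CPM in FS and 23, 13.5 and 16.7 CPM in AF, a ratio of 126 (65.8 to 277). The ratio was 144 (75.4 to 317) for the endoderm factor Gata6 and 166 (89.5 to 347) for the forkhead gene Foxq1. It was 1693 (303 to 66972) for the GTPase gene Gbp2b, 933 (258 to 7721) for the pepsinogen gene Pga5, 385 (131 to 1875) for the repressor Prdm1 and 290 (98.5 to 1413) for the peptide transporter Slc15a2. In AFX the means were 11.7 CPM for Slc15a2, near the AF samples, and 0.589 CPM for Emp1 and 0.705 CPM for Gbp2b, far below them.

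Whole chromosomes also shifted in 1 FS line or the other. The median of log2(CPM + 1) minus the AF mean, over genes with at least 10 CPM in a group, was taken per chromosome and sample. On chromosome 11, over 762 genes, it was 0.18, 0.27 and 0.35 in line 2 at passages 12, 13 and 16, and 0.03, -0.0045 and 0.01 in line 1 at passages 10, 11 and 18. On chromosome 17, over 449 genes, it was 0.04, 0.18 and 0.37 in line 1 and 0.01, -0.05 and -0.04 in line 2. On every other autosome the FS samples stayed between -0.14 and 0.13. Each of these shifts was larger at the later passages, but each passage is 1 sample. On chromosomes 6, 8 and 16 all 6 FS samples were below 0, with 114, 109 and 64 genes lower against 57, 47 and 26 higher. The 3 AFX samples were below 0 on these chromosomes as well, and on chromosome 15 they were at 0.47, 0.54 and 0.51, while the FS samples there lay between -0.07 and 0.0038. The largest share of lower genes was on chromosome 14, with 100 of 577 lower (17.3%) and 41 higher. Chromosome copy number was not measured. Of the genes of chromosome 11, 131 of 1200 were higher (10.9%) and 97 lower (8.08%). Brip1 lies there, as does the histone gene Hist3h2ba, whereas Ehd3, Ttbk1, Wdr43 and Tubb4a lie on chromosome 17. The log2 fold change of Brip1 was 0.75 in line 1 and 1.15 in line 2 against AF, and that of Wdr43 was 0.78 and 0.95. The part of these shifts in the changes of single genes was not tested beyond the fit without both chromosomes.

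**Figure D5:**
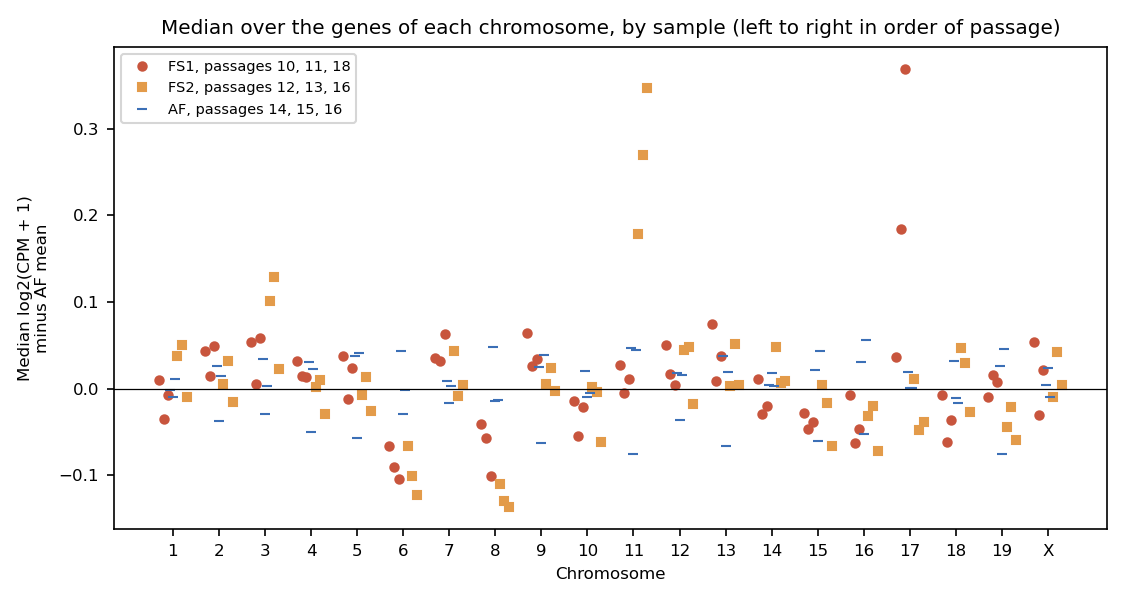
Median over the genes of each chromosome of log2(CPM + 1) minus the AF mean, for the 3 samples of each FS line and of AF, left to right in order of passage within a group. Line 2 stands out on chromosome 11, up to 0.35 at passage 16, and line 1 on chromosome 17, up to 0.37 at passage 18.

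By gene type in the GENCODE annotation, long intergenic non-coding RNAs were higher in 37 of 313 cases (11.8%) and lower in 20 (6.39%). Protein-coding genes were higher in 9.06% and lower in 11.6% of 13229 cases. Processed pseudogenes had 38 higher and 67 lower of 648, and their reads may come from parent genes. The FS lines differed from each other, with an adjusted p under 0.05, in 147 of the 3126 called genes (4.70%), close to the 3.85% of all genes tested.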

How the data were processed

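RNA was sequenced from 1000 cells per sample. The values are raw counts per gene, deposited by the authors as 1 table for the series; the submitters' processing notes name Trim Galore, TopHat2 2.1.0, featureCounts 1.5.0 and the build mm10, and the strand setting and annotation of the counting are not given in the sources used here. Total counts in the 9 samples ran from 7753188 to 15916800. Genes with low counts were removed with filterByExpr, which left 16052 of 33861. Counts were fitted with edgeR 4.0.16 (quasi-likelihood test, TMM scaling, R 4.3.3), with FS (6 samples), AF and AFX as groups that share an estimate of spread; the sign in each line came from a second fit with the lines as separate groups. P-values were adjusted by Benjamini-Hochberg over all genes tested. Alternatives used DESeq2 1.42.0, limma 3.58.1, other filters, scalings and samples. Summaries used Python 3.11.15, and the fit was checked on simulated counts without a difference between the FS lines. It recovered 50% of 2-fold and 84% of 4-fold changes, with 5 false calls among 139. A gene that was not called may therefore still differ. Intervals cover counting error only.

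Named genes were, first, the 12 largest rises and the 12 largest falls among genes called in each line, with at least 10 CPM in the higher group, no overlap and an ordinary gene symbol. In each list described they were up to 4 called members with the smallest adjusted p and up to 2 members not called with the highest level. Members of the cell type lists could also be named. Some genes that the rule selects are not reported here. The comparison and the lists were chosen with earlier results of these data known. Of all list names, 5 had no row in the table. Gene types and chromosomes came from the GENCODE M21 annotation of GRCm38 (16010 of 16052 genes matched), and promoters from RefSeq on GRCm38.p6 (11006 of the genes tested).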

Additional observations from a re-analysis of the deposited data

Results flagged for a closer look

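In 11 of 173 named genes, the highest or lowest FS sample stood far from the other 5 on the log2(CPM + 1) scale. Chance alone sets 1 sample apart in about 1 in 20 groups. The highest sample stood apart for Flna (1188 CPM, line 2 at passage 12), Vcl (298 CPM, line 2 at passage 12), Sema3f (19.2 CPM, line 1 at passage 11), Mbnl1 (12.9 CPM, line 1 at passage 11), Tef (49.8 CPM, line 1 at passage 10), Ccl19 (17.9 CPM, line 2 at passage 13) and Gbp2b (0.106 CPM, line 1 at passage 10, from 1 count). The lowest sample stood apart for Ctnnb1 (466 CPM, line 1 at passage 11), Bmpr1a (82.6 CPM, line 1 at passage 11), Kif5c (95.7 CPM, line 1 at passage 10) and Ccdc177 (8.77 CPM, line 2 at passage 12). No sample accounts for more than 4 of the 11.

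In 7 named genes the FS lines differed from each other in edgeR with an adjusted p under 0.05, so the size of the change from AF differed between lines, although its direction did not. As log2 fold change of line 2 against line 1, the values were -3.91 for Postn, -0.58 for Col5a1, -2.79 for Kif26b, 0.60 for Meg3, -4.31 for Ankrd35, 1.77 for A3galt2 and 1.55 for Sdk2. The value for Postn is a fitted one, since line 2 held it at 0.0852, 0 and 0 CPM.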

How the results depend on the processing

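Of 3595 values of named genes under alternative settings, 0 reversed, 9 lost and 10 gained the call; those genes are Thy1, Hspg2, Fgfr1, Jak1, Pim3, Prps1, Ankrd35 and A3galt2, whose values stand beside them above. The count of higher genes was 906 with line 1 alone, 899 with line as a random block in limma and 756 with a change of at least 2-fold, which also lowered the count of lower genes to 1028. Leaving out 1 sample in turn gave 905 to 1511 higher and 1358 to 1872 lower genes, and 597 to 985 higher and 756 to 1067 lower genes in each line on its own. It gave 2 to 6 named genes that differ between the FS lines, against 7 with all samples. The cause of these shifts was not tested, except that 2-fold is a stricter rule by construction. With only genes of at least 5 CPM on average, fewer genes were tested. Lower members were then 11 of 18 for collagens, 6 of 19 for matrix enzymes, 5 of 9 for integrins and 3 of 6 for transition regulators. They were 8 of 17 for BMP, 6 of 19 for WNT receptors, 5 of 9 for LIF and 5 of 20 for interferon genes. Higher members were 3 of 9 protocadherins and 3 of 45 guidance genes. DNA replication genes were higher in 8 cases in DESeq2 and in 7 without chromosomes 11 and 17. No paired analysis was possible because the replicate numbers are passages, and FS and AF share only passage 16, in line 2. Removing the genes of chromosomes 11 and 17, an alternative chosen after seeing the data, gave 1306 higher and 1521 lower genes. Depth limits low genes: at 3 counts, or 0.181 to 0.399 CPM, a level cannot be told from 0.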

Other observations

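Targets of p53, a factor that responds to DNA damage, had 5 of 28 members higher (17.9%, against 8.86% of all genes tested) and 3 lower. The higher count was 2 without AF at passage 14, and 3 without AF at passage 16 or line 2 at passage 12 or 16. With line as a random block it was also 3, while 899 of all 16052 genes were higher in that fit.

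The other motifs searched in the 250 bases before a start, on both strands, gave these shares, as a description. TCACNCCAC stood in 1 of 15 promoters of sterol synthesis enzymes, against 1.25% of all genes tested, and in 0 of 12 promoters of sterol regulation genes. TGATGCAA stood in 5 of 24 promoters of ATF4 stress response genes (20.8%), against 0.609%. TGCNCNC stood in 16 of 22 promoters of metallothioneins and zinc transporters (72.7%), against 57.9%. CATTCCA stood in 2 of 21 promoters of YAP and TEAD targets (9.52%), against 3.06%. TGACTCA stood in 4.83% of promoters of genes lower in FS and 2.94% of those of genes higher in FS, against 3.7%. For the other motifs, in the order above, the shares in lower and higher genes were 1.42% and 1.42%, 0.333% and 0.71%, 63.6% and 57.8%, and 3.91% and 3.14%.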
